A study of Mus musculus with 12 samples.

Results

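The expression of 40 genes of the lysosome and of autophagy was followed in mouse leukemia cells with and without Rictor, an essential subunit of the kinase complex mTORC2. The genes are a fixed list of 23 lysosomal proteins and 17 factors of autophagy, chosen with earlier results of these data known. Each was represented by its brightest microarray probe set that carries 1 gene symbol. By this rule 39 of the 40 had a probe set of their own, out of 18194 genes on the array, and all 39 passed the filter on dim genes. Bnip3l, a mitophagy receptor, had none and was not analysed here, which left 23 lysosomal and 16 autophagy genes.

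Total RNA of sorted leukemia cells was hybridized to 12 Affymetrix arrays in 4 groups of 3. They are Rictor-deleted (Rictor Δ/Δ) and control (Rictor wild type) leukemia driven by the fusion MLL-AF9, and the same pair driven by the fusion MLL-NRIP3. Every group carries one of these MLL fusions, and every sample came from recipients of transplantation 1 whose circulating white cells were more than 50% CD45.2+. The cells are labelled K+G– bone marrow leukemia cells, although the labels name peripheral blood as the host tissue, and neither the way Rictor was deleted nor the number of mice behind each group is given in the sources used here. The p-values therefore describe only the spread among these arrays, which may be technical.

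Lysosomes are acidic organelles whose hydrolases break down proteins, lipids and sugar chains delivered by endocytosis or by autophagy. In autophagy a double membrane closes around cytoplasm and then fuses with the lysosome, and the kinase Ulk1, the conjugation factors Atg5, Atg7, Atg12 and Atg16l1 and the LC3 and GABARAP proteins drive this. The transcription factors Tfeb and Tfe3, held in the cytoplasm by mTORC1 when nutrients are plentiful, bind an E-box that is common in promoters of lysosomal genes, and myeloid cells, macrophages above all, are rich in lysosomal enzymes.

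Intensities below are the deposited linear values, and differences are Rictor-deleted minus control on the scale of log2(intensity + 16), which understates changes of dim genes. A gene was called when its adjusted p was under 0.05 in limma, with Benjamini-Hochberg adjustment over the 12573 genes tested. Values of the 2 leukemias look as if they were normalized separately, so their intensities are given side by side and not compared. The median standard deviation between replicates was 0.062 in Rictor-deleted and 0.076 in control MLL-AF9 arrays, and 0.136 in Rictor-deleted and 0.146 in control MLL-NRIP3 arrays (log2). Each leukemia was therefore tested on its own 6 arrays.

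Some facts of the whole series touch these results. The brightest Rictor probe set read 77.9, 88.1 and 96.4 in Rictor-deleted and 84.4, 92.4 and 83.7 in control MLL-AF9 leukemia, and 84.5, 107 and 121 in Rictor-deleted and 87.5, 111 and 139 in control MLL-NRIP3 leukemia. It showed no loss of transcript, and where it lies relative to the deleted part is not given. The X-inactivation transcript Xist averaged 98.5 ± 95.0 in Rictor-deleted and 2387 ± 48.5 in control MLL-AF9 leukemia (SD, n = 3 each), and Y-linked Eif2s3y averaged 162 ± 20.9 in Rictor-deleted and 4.97 ± 2.46 in control cells. Genotype and sex of the cells therefore cannot be told apart in that model. The labelled leukocyte marker Ptprc (CD45) read 1509 to 1656 in Rictor-deleted and 1448 to 1623 in control MLL-AF9 cells, and 1813 to 1951 in Rictor-deleted and 1686 to 2244 in control MLL-NRIP3 cells. In MLL-NRIP3 leukemia, control arrays 1 and 2 stood apart: the mean log2 signal of 18 hybridization control probe sets was 11.22 and 10.62 on them, against 9.38 to 9.59 on the Rictor-deleted arrays and 9.54 on control array 3.

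In MLL-AF9 leukemia, 9 lysosomal genes were lower in Rictor-deleted cells while no autophagy gene was called. Of the 23 lysosomal genes 9 fell and 0 rose, against 4.46% of all genes tested that fell and 3.8% that rose. They were Lamp1, Npc1 and Npc2 among the proteins of the membrane and of cholesterol export, the proteases Ctsa, Ctsb and Ctsh, the glycosidases Glb1 and Man2b1, and Psap, the precursor of the saposins. The median difference of the 23 genes was -0.19, against -0.01 over all genes tested, and 21 of the 23 differences were negative. All 3 Rictor-deleted arrays lay below all 3 controls for 12 of the 23 genes, against 15.7% of all genes. With all 12 arrays in one fit, which shares 1 estimate of the spread between both leukemias, 0 of the 23 were called (0.461% of all genes fell in that fit), and the adjusted p of the 9 genes ran from 0.088 to 0.74 in limma. Monocyte and macrophage markers moved alongside, with 7 of 12 tested lower and a summed intensity of 1861 to 2040.2 in Rictor-deleted and 2435 to 2572 in control cells. Their part in the lysosomal result was not tested, and in RNA of a bulk sort fewer cells of a type and less RNA per cell cannot be told apart.

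**Figure D1:**
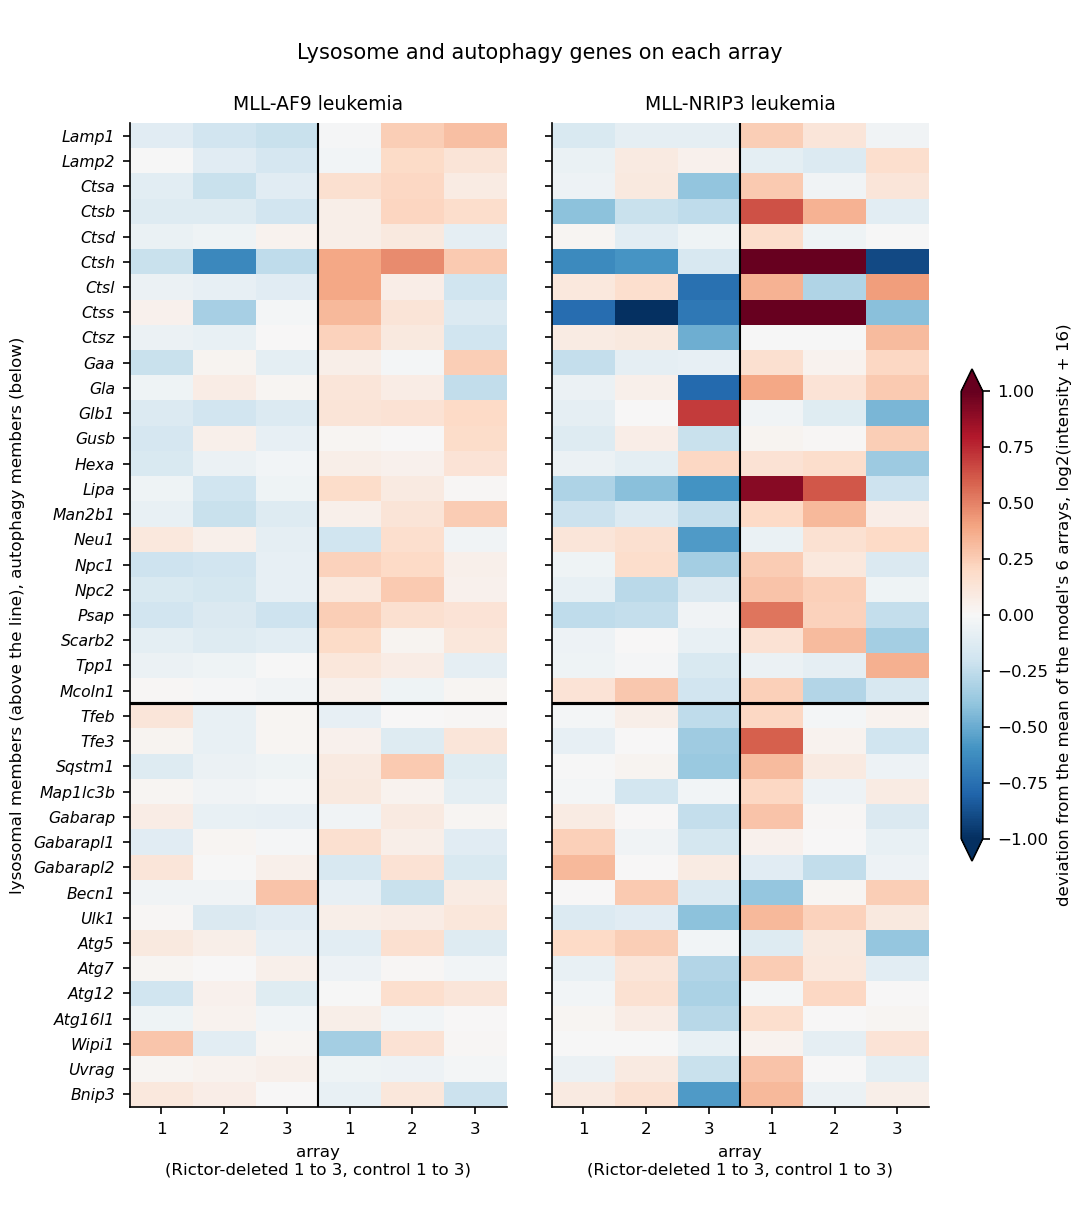
Each cell is 1 gene on 1 array, coloured by its deviation from the mean of that leukemia's 6 arrays on the scale of log2(intensity + 16), with colours ending at 1 in either direction; Rictor-deleted arrays stand left of the control arrays. The median of the lysosomal genes, above the horizontal line, was lower on all 3 Rictor-deleted MLL-AF9 arrays (deviation -0.13 to -0.09, against 0.08 to 0.13 on the controls), whereas in MLL-NRIP3 leukemia control arrays 1 and 2 hold the highest values of several genes.

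The largest difference was that of Ctsh, a cysteine protease that trims peptides from their amino end. It read 659, 489 and 647 in Rictor-deleted and 1015, 1077 and 930.2 in control MLL-AF9 cells. No Rictor-deleted array came near the controls, and array 2 was the lowest. Ctsh fell by 0.75 ± 0.10 (SE; limma adjusted p = 0.0009), which is 1.68-fold lower. Psap, whose saposins help enzymes reach sphingolipids, read 428, 443 and 425 in Rictor-deleted and 587, 552 and 541 in control cells, and fell by 0.36 ± 0.06 (SE; limma adjusted p = 0.002). Its 3 Rictor-deleted values lay within a narrow band under the lowest control.

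Among the other proteases, Ctsb, an abundant cysteine cathepsin, read 598, 596 and 573 in Rictor-deleted and 682, 763 and 742 in control MLL-AF9 cells, and fell by 0.30 ± 0.06 (SE; limma adjusted p = 0.0074). Ctsa, a carboxypeptidase that also stabilises beta-galactosidase and neuraminidase in a complex, read 556, 511 and 555 in Rictor-deleted and 673, 694 and 636 in control cells, and fell by 0.30 ± 0.06 (SE; limma adjusted p = 0.0088). The groups did not overlap for either gene. Ctsd, the main aspartic protease of lysosomes, read 282, 287 and 303 in Rictor-deleted and 309, 317 and 277 in control cells, a difference of -0.04 ± 0.07 (SE; limma adjusted p = 0.76) with overlapping groups. The proteases Ctsl, Ctss, Ctsz and Tpp1 were not called either, with differences from -0.21 for Ctss to -0.07 for Tpp1.

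Lamp1, a heavily glycosylated protein of the lysosomal membrane, read 1042, 988 and 969 in Rictor-deleted and 1121, 1342 and 1396 in control MLL-AF9 cells. It fell by 0.35 ± 0.07 (SE; limma adjusted p = 0.014), with control array 1 the nearest to the Rictor-deleted arrays. Npc1, the membrane transporter that passes cholesterol out of the lysosome, was dim at 25.3, 25.9 and 29.2 in Rictor-deleted and 40.04, 38.8 and 33.5 in control cells, and fell by 0.32 ± 0.08 (SE; limma adjusted p = 0.03). Npc2, the soluble protein that hands cholesterol to Npc1, read 1701, 1679.5 and 1791 in Rictor-deleted and 2043, 2273 and 1959 in control cells, and fell by 0.27 ± 0.06 (SE; limma adjusted p = 0.014). The groups did not overlap for any of these 3 genes. The membrane proteins Lamp2, Scarb2 (the receptor that carries glucocerebrosidase to lysosomes) and the calcium channel Mcoln1 had differences of -0.19, -0.22 and -0.02 and were not called.

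Man2b1, the lysosomal alpha-mannosidase, read 1589, 1429 and 1530.2 in Rictor-deleted and 1733, 1830.3 and 1994 in control MLL-AF9 cells, and fell by 0.28 ± 0.06 (SE; limma adjusted p = 0.014). Glb1, the lysosomal beta-galactosidase, read 62.3, 59.6 and 62.3 in Rictor-deleted and 78.5, 79.2 and 83.1 in control cells, and fell by 0.32 ± 0.07 (SE; limma adjusted p = 0.023). Each group of Glb1 was tight and the gap between them wide compared with its spread. The other hydrolases of sugar chains and lipids (Gaa, Gla, Gusb, Hexa, Lipa and Neu1) had differences from -0.19 to 0.05, and none was called. Of these, Hexa and the acid lipase Lipa had every Rictor-deleted value below every control, at limma adjusted p of 0.097 and 0.13.

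The calls of Ctsa, Ctsb, Ctsh and Psap held when any single array was left out, and without Rictor-deleted array 2 these were the 4 called, against 2.16% of all genes that fell. Lamp1 lost its call without control array 3, Rictor-deleted array 2 or Rictor-deleted array 3 (limma adjusted p from 0.058 to 0.065), Man2b1 without Rictor-deleted array 2 (0.07) and Npc2 without Rictor-deleted array 1 or 2 (0.059 and 0.069). Glb1 lost it without any single array other than control 1 (limma adjusted p from 0.051 to 0.091), and Npc1 without any other than control 3 (0.053 to 0.11). MLL-AF9 control array 3 differed from the other MLL-AF9 arrays in its control probe sets. Its 5′ to 3′ ratio of Gapdh was 0.901, against 1.01 to 1.09, and its mean poly-A signal was 7.35, against 5.46 to 5.9 (log2). Of the 9 genes, 6 had 11 further probe sets on the array, 9 of which had a negative difference and 4 of which were called lower. The only further probe set of Ctsa was at 0.04, and those of Ctsb ran from -0.44 to 0.10. The Ctsa one and the Ctsb one at 0.10 were dim, at mean intensities of 9.33 and 17.2. Those used for these genes were at 916 and 861. A brighter further probe set of Ctsb, at 247, differed by -0.05. With the probe sets of a gene averaged, Ctsa (-0.13, limma adjusted p = 0.18) and Ctsb (-0.20, limma adjusted p = 0.064) were not called. Lamp1, Glb1 and Npc1 had no further probe set.

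**Figure D2:**
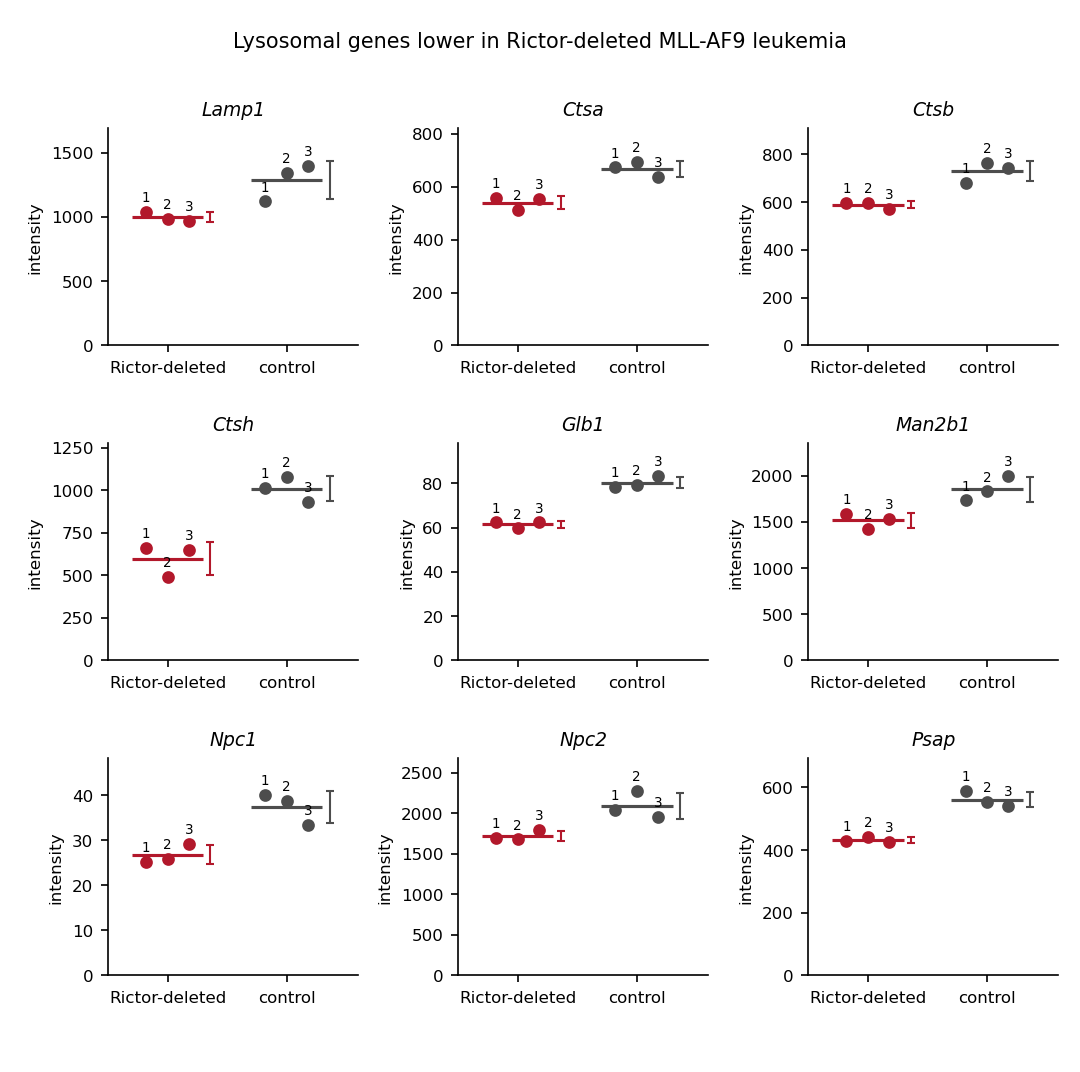
Intensity of the 9 lysosomal genes that fell in Rictor-deleted MLL-AF9 leukemia, 1 panel per gene, with a linear axis from 0. Points are arrays with their replicate number, lines are group means and bars the SD (n = 3 each); in every panel the 3 Rictor-deleted arrays (left) lie below the 3 control arrays (right), as for Ctsh with 489 to 659 against 930.2 to 1077.

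Promoters of these genes were searched for the E-box hexamer CACGTG, for TCACGTGA, which contains it and is the core that Tfeb prefers, and for the same core with a G before it and a C after it. All 3 read the same on both strands. The windows, from the RefSeq promoter table of build GRCm38.p6, hold 250 bases before and 50 bases after a transcript's annotated start. Of the 20 lysosomal genes with a window, 8 held CACGTG, 4 held TCACGTGA and 0 held the extended form, while among the 13 autophagy genes with a window 3, 0 and 0 did. Over all 27025 genes of the promoter table, counted in the same way, the shares were 8.09%, 1.12% and 0.37%. Among lysosomal genes with a window, CACGTG lay in 3 of the 6 that fell in MLL-AF9 leukemia (Lamp1, Ctsa and Glb1) and in 5 of the 14 that were not called. Ctsb, Ctsh and Npc1 had no window. Stretches before the start are printed for Lamp1, which fell and holds 4 hexamers, and for the 4 genes with TCACGTGA, of which Ctsa fell and Ctsd, Gla and Mcoln1 were not called. Lamp1 was chosen after its values were seen. Capitals mark CACGTG in Lamp1 and TCACGTGA in the others, and each sequence runs 5′ to 3′ on the gene's strand. They lie at chr8:13159061-13159160 (plus strand, Lamp1), chr2:164833743-164833772 (plus, Ctsa), chr7:142387873-142387972 (minus, Ctsd), chrX:134601215-134601244 (minus, Gla) and chr8:3500419-3500518 (plus, Mcoln1). The Ctsa stretch precedes a later start inside the gene, and that of Gla overlaps the neighbouring gene Hnrnph2, so both are shown over 30 bases.
Lamp1: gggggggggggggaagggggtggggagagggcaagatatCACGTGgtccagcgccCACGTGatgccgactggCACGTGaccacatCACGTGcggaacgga
Ctsa: gaacaatgagcaaactgTCACGTGAtgcag
Ctsd: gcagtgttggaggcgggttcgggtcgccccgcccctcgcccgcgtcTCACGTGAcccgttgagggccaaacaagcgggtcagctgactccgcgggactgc
Gla: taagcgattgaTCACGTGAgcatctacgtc
Mcoln1: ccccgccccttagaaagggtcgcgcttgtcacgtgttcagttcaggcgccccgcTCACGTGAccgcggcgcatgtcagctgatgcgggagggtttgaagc
The hexamers of Lamp1 begin 61, 45, 28 and 15 bases before the start, and TCACGTGA begins 13 bases before the start in Ctsa, 99 in Ctsd, 228 in Gla and 46 in Mcoln1. Ctsa holds a second copy at base 5 of the transcript and Gla a second copy 195 bases before the start, both outside the printed stretches. A match describes these letters only and is no evidence of binding. Tfeb itself read 60.9, 51.4 and 55.9 in Rictor-deleted and 50.8, 55.1 and 55.3 in control MLL-AF9 cells, a difference of 0.05 ± 0.08 (SE; limma adjusted p = 0.81). Tfe3 differed by -0.02 ± 0.09 (SE; limma adjusted p = 0.93). The X-linked members Lamp2, Gla and Tfe3 were not called in MLL-AF9 leukemia, whose groups differ in Xist. The part of sex in the values of the members was not tested, and it cannot be told apart from genotype there.

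None of the 16 autophagy genes was called in MLL-AF9 leukemia, where 8.26% of all genes tested were. Their median difference was 0.01, with 8 positive and 8 negative, and 1 had an unadjusted p under 0.05, against 21.8% of all genes. The differences ran from -0.18 for Atg12 to 0.15 for Becn1, a subunit of the lipid kinase complex that starts the membrane. The 3 with the smallest p were Atg12, Ulk1 and Sqstm1. Atg12, the ubiquitin-like protein joined to Atg5, read 109, 132 and 116 in Rictor-deleted and 127, 145 and 140.4 in control cells, a difference of -0.18 ± 0.08 (SE; limma adjusted p = 0.23), with overlapping groups. Ulk1, the initiating kinase that mTORC1 inhibits, read 95.1, 83.4 and 85.9 in Rictor-deleted and 98.9, 99.7 and 103 in control cells, a difference of -0.16 ± 0.07 (SE; limma adjusted p = 0.23). Its groups did not overlap, but the gap was small.

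Sqstm1 (p62), the receptor that carries ubiquitinated cargo into autophagosomes, read 182, 192 and 194 in Rictor-deleted and 215, 244 and 183 in control MLL-AF9 cells, a difference of -0.16 ± 0.09 (SE; limma adjusted p = 0.36). Map1lc3b (LC3B), the ubiquitin-like protein of the autophagosome membrane, read 539, 518 and 524 in Rictor-deleted and 569, 546 and 497 in control cells, a difference of -0.03 ± 0.06 (SE; limma adjusted p = 0.86). Both overlapped between the groups. Its relatives Gabarap, Gabarapl1 and Gabarapl2 differed by -0.05, -0.07 and 0.12. Uvrag, a partner of Becn1, was the autophagy gene with every Rictor-deleted value above every control, as for 11.4% of all genes, at a difference of 0.07 ± 0.06 (SE; limma adjusted p = 0.59).

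**Figure D3:**
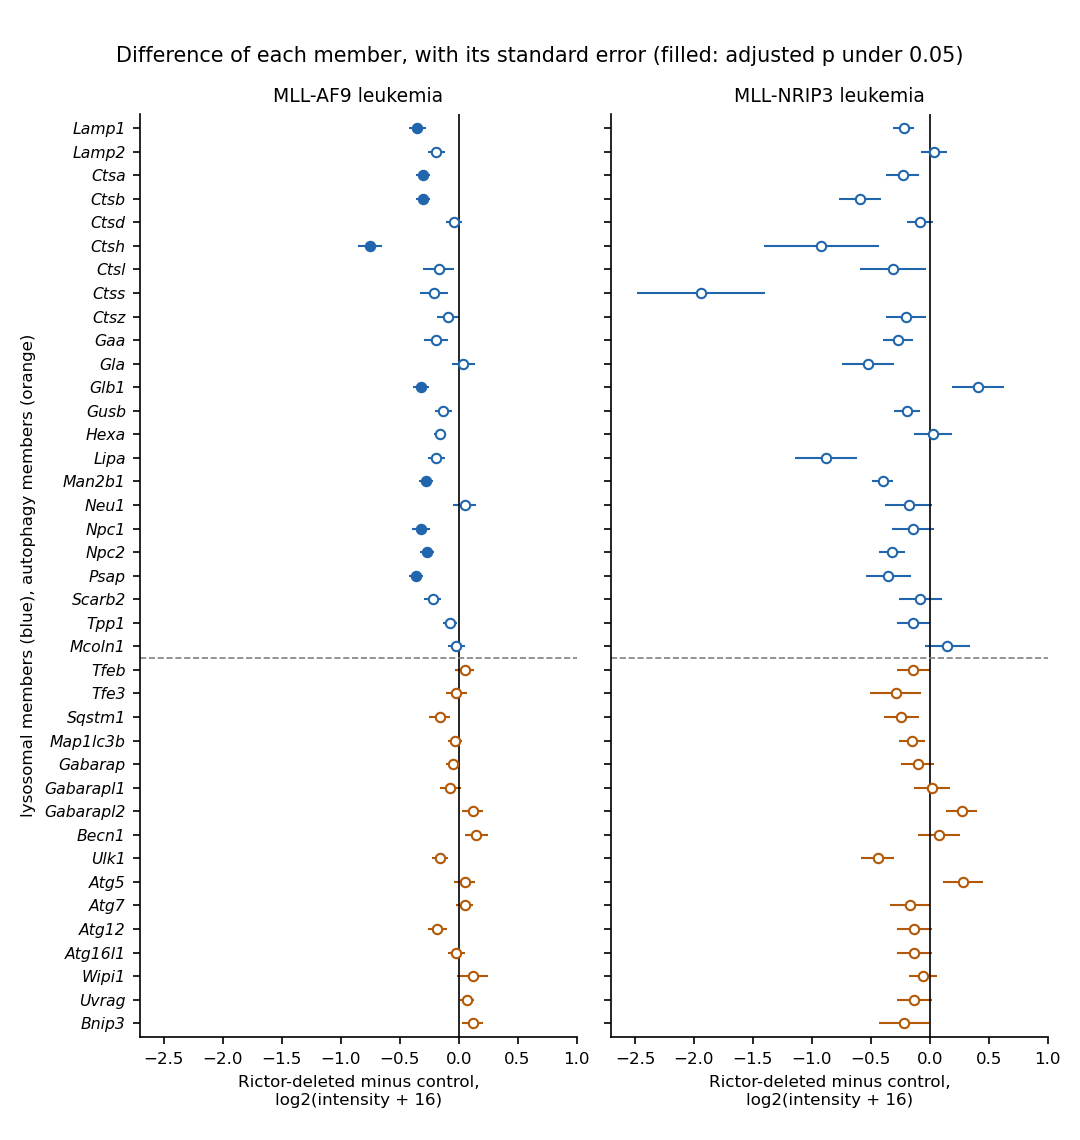
Difference of each gene between Rictor-deleted and control leukemia on the scale of log2(intensity + 16), with its standard error from limma, for lysosomal genes (blue, above the dashed line) and autophagy genes (orange, below it). Filled points have an adjusted p under 0.05: 9 lysosomal genes in MLL-AF9 leukemia, all negative, and none in MLL-NRIP3 leukemia, where Ctss at -1.94 lies farthest from 0 and has the widest standard error.

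In MLL-NRIP3 leukemia no lysosomal gene and no autophagy gene passed the test, in a comparison that called 1.53% of all genes tested. The median difference of the 23 lysosomal genes was -0.22, against 0.00 over all genes, and 19 were negative. All 3 Rictor-deleted arrays lay below all 3 controls for 8 genes (Lamp1, Ctsb, Ctss, Gaa, Gla, Lipa, Man2b1 and Npc2), against 12.7% of all genes, and 7 of the 23 had an unadjusted p under 0.05, against 17.7% of all genes. The controls spread widely, and control arrays 1 and 2, which stood apart in the hybridization controls, both lay above every Rictor-deleted array for 11 of the 23 lysosomal genes and for 3 of the 16 autophagy genes, against 22.6% of all genes tested. Control array 3 lay above the range of the Rictor-deleted arrays for 15 lysosomal genes, below it for 4 and inside it for 4, against 28.7%, 23.9% and 47.5% of all genes. Without control arrays 1 and 2, 0 lysosomal and 0 autophagy genes were called, as 0.215% of all genes were.

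Ctss, a cysteine protease that matures MHC class II in antigen-presenting cells, had the largest difference. It read 196, 118 and 203 in Rictor-deleted and 1549, 816 and 254 in control MLL-NRIP3 cells, a difference of -1.94 ± 0.54 (SE; limma adjusted p = 0.13). Control array 1 was far above the rest and control array 3 just above the Rictor-deleted arrays. Without control arrays 1 and 2 the difference was -0.55. Lipa, the acid lipase that frees cholesterol from its esters, read 203, 187 and 164 in Rictor-deleted and 495, 401 and 219.7 in control cells, a difference of -0.88 ± 0.26 (SE; limma adjusted p = 0.14), or -0.24 without control arrays 1 and 2.

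Ctsb had the same order on the controls, at 767, 878 and 859.6 in Rictor-deleted and 1605, 1311 and 951 in control MLL-NRIP3 cells, a difference of -0.59 ± 0.18 (SE; limma adjusted p = 0.15), or -0.19 without control arrays 1 and 2. Psap read 600.5, 609 and 705 in Rictor-deleted and 1051, 849 and 609 in control cells, a difference of -0.35 ± 0.19 (SE; limma adjusted p = 0.36), or 0.06 without those 2 arrays. Ctsh read 88.2, 91.7 and 129 in Rictor-deleted and 311, 373 and 70.5 in control cells, a difference of -0.92 ± 0.49 (SE; limma adjusted p = 0.37), or 0.44 without them. For Ctsh, control array 3 was the lowest of the 6 arrays, so the direction of its difference rests on control arrays 1 and 2.

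Man2b1 had the smallest p of the lysosomal genes and depended less on those arrays. It read 1971, 2082 and 1946 in Rictor-deleted and 2641, 2871 and 2408 in control MLL-NRIP3 cells, a difference of -0.40 ± 0.09 (SE; limma adjusted p = 0.077), or -0.27 without control arrays 1 and 2. All 3 controls lay clear of the Rictor-deleted arrays. Lamp1 read 2090.1, 2187 and 2185 in Rictor-deleted and 2767, 2536 and 2274 in control cells, a difference of -0.22 ± 0.09 (SE; limma adjusted p = 0.25), or -0.08 without control arrays 1 and 2. Ctsd read 588, 538 and 564 in Rictor-deleted and 658, 562 and 577 in control cells, a difference of -0.08 ± 0.11 (SE; limma adjusted p = 0.73), with overlapping groups. Glb1 had the most positive difference, 0.41 ± 0.22 (SE; limma adjusted p = 0.38), at 188, 201 and 336 in Rictor-deleted and 195, 183 and 142 in control cells, where Rictor-deleted array 3 was the highest.

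**Figure D4:**
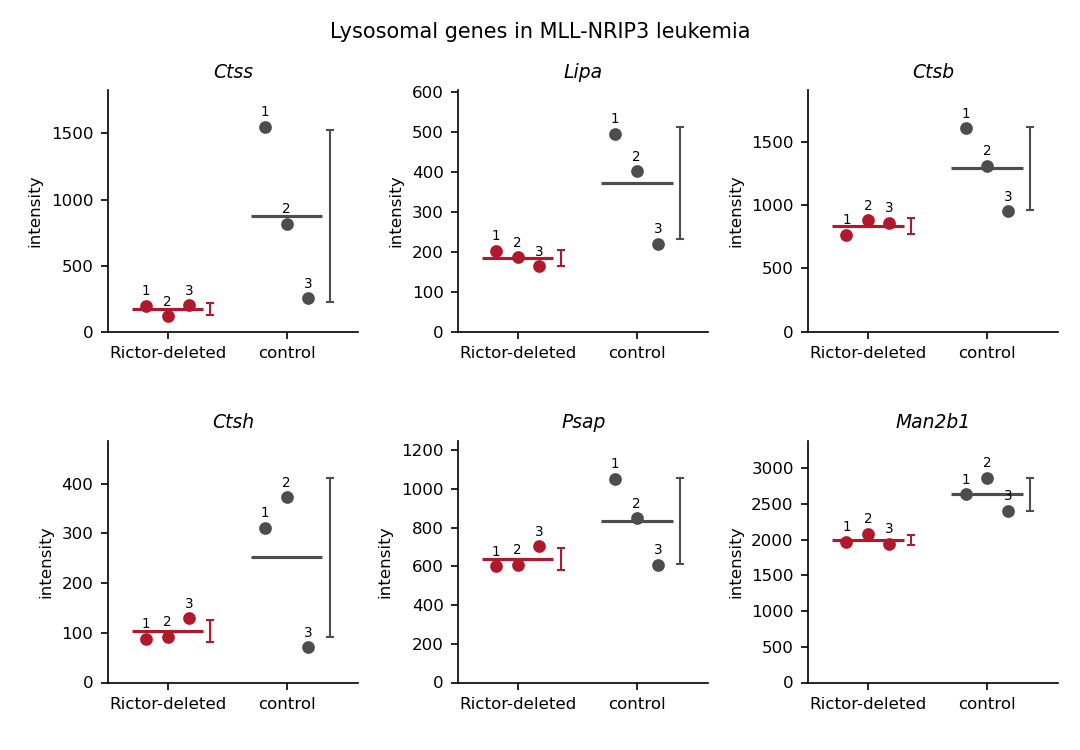
Intensity of 6 lysosomal genes in MLL-NRIP3 leukemia, 1 panel per gene, with a linear axis from 0. Points are arrays with their replicate number, lines are group means and bars the SD (n = 3 each); control arrays 1 and 2 (right) lie far above the Rictor-deleted arrays (left) for Ctss, Lipa, Ctsb and Ctsh, while control array 3 lies at 254, 219.7, 951 and 70.5, and for Man2b1 all 3 controls lie at 2408 or more against 2082 or less.

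The number of lysosomal genes called in MLL-NRIP3 leukemia depended on the arrays and on the estimate of the spread. With all 12 arrays in one fit, 5 were called, all lower (Ctsb, Ctss, Lipa, Man2b1 and Npc2), against 7.83% of all genes lower. Weighting each array by its quality gave 8 lower, against 10.8% of all genes. Leaving out control array 3 gave 7 lower, against 4.01% of all genes.

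The autophagy genes of MLL-NRIP3 leukemia had a median difference of -0.13, with 12 of 16 negative. Rictor-deleted array 3 was low for many of them, with a median deviation of -0.25 against -0.01 and 0.04 on the other Rictor-deleted arrays, and without it their median difference was -0.02. Ulk1 had the smallest p. It read 164, 167 and 133 in Rictor-deleted and 232, 216 and 196 in control cells, a difference of -0.44 ± 0.14 (SE; limma adjusted p = 0.17), and its groups did not overlap. With all 12 arrays in one fit Ulk1 was called (limma adjusted p = 0.018), where 13.8% of all genes were.

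Gabarapl2, of the GABARAP family, was the only autophagy gene with every Rictor-deleted value above every control in MLL-NRIP3 leukemia, against 9.7% of all genes, at 414, 328 and 348 in Rictor-deleted and 302, 274 and 316 in control cells, a difference of 0.27 ± 0.13 (SE; limma adjusted p = 0.33). Atg5, the partner of Atg12, read 118, 122 and 98.5 in Rictor-deleted and 90.4, 109 and 73.3 in control cells, a difference of 0.28 ± 0.17 (SE; limma adjusted p = 0.43). Sqstm1 read 344, 352 and 264 in Rictor-deleted and 435, 369 and 333 in control cells, a difference of -0.24 ± 0.15 (SE; limma adjusted p = 0.47). For Atg5 and Sqstm1 the groups overlapped. Map1lc3b read 632, 562 and 628 in Rictor-deleted and 742, 617 and 678 in control cells, a difference of -0.15 ± 0.11 (SE; limma adjusted p = 0.52). Tfeb read 54.6, 58.6 and 44.1 in Rictor-deleted and 66.6, 54.5 and 57.2 in control cells, a difference of -0.14 ± 0.14 (SE; limma adjusted p = 0.64). Both again overlapped between the groups.

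The 9 lysosomal genes that fell in MLL-AF9 leukemia could be read again on the MLL-NRIP3 arrays, which share no sample with them. There 8 of the 9 differences were negative, all but Glb1, against 66% of the 561 genes that fell in MLL-AF9 leukemia and 50.1% of all genes tested. Without MLL-NRIP3 control arrays 1 and 2, 5 of the 9 were negative, against 51.5% of the 561 genes. The other 14 lysosomal genes had 11 negative differences with those arrays and 11 without them. The difference between the responses of the 2 leukemias (MLL-NRIP3 minus MLL-AF9, all 12 arrays) passed the test for 0 of 23 lysosomal and 0 of 16 autophagy genes, against 4.29% of all genes. At an unadjusted p under 0.05 these counts were 3 and 0, against 18.7% of all genes.

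Those 3 genes were Glb1, with a difference of responses of 0.72 ± 0.25 (SE; limma adjusted p = 0.13), Ctss, with -1.73 ± 0.65 (SE; limma adjusted p = 0.16), and Lipa, with -0.69 ± 0.30 (SE; limma adjusted p = 0.23). Of the autophagy genes Ulk1, Bnip3 (a mitophagy receptor) and Uvrag had the smallest p, with differences of responses of -0.27 ± 0.15, -0.34 ± 0.24 and -0.20 ± 0.16 (SE; limma adjusted p from 0.35 to 0.54). Without MLL-NRIP3 control array 3 the responses of 4 lysosomal genes differed (Ctsb, Ctsh, Ctss and Lipa, all negative), against 5.95% of all genes with a negative difference. Without control arrays 1 and 2 those of Ctsh and Hexa differed (1.19 and 0.53), both positive, against 5.44% of all genes. Ctsh thus changed sign with the controls kept.

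Further genes of the same organelles were counted over broader lists. Of 40 further lysosomal genes tested, 6 fell and 2 rose in MLL-AF9 leukemia, against 4.46% of all genes that fell and 3.8% that rose. Those that fell were Smpd1 (acid sphingomyelinase), Gm2a (the activator that presents GM2 ganglioside to Hexa), Manba (beta-mannosidase), Ppt1 (palmitoyl-protein thioesterase), the cathepsin Ctso and the macrophage glycoprotein Cd68. Gm2a read 529, 457 and 522 in Rictor-deleted and 622, 693 and 703 in control cells, and fell by 0.41 ± 0.07 (SE; limma adjusted p = 0.0045). Grn, a secreted protein cleaved into granulins in lysosomes, rose, at 1079.8, 1032 and 1065 in Rictor-deleted and 904, 859.8 and 884 in control cells (0.26 ± 0.05, SE; limma adjusted p = 0.0067). The arrays did not overlap for Gm2a or Grn, and neither was called with all 12 arrays in one fit (limma adjusted p = 0.25 for Gm2a and 0.14 for Grn). Smpd1, Manba, Ppt1, Ctso and Cd68 also lost their calls in that fit. With the probe sets of a gene averaged, Gm2a (-0.10, limma adjusted p = 0.39) and Smpd1 (-0.17, limma adjusted p = 0.099) were not called. Neither were Ppt1 (-0.11, limma adjusted p = 0.22) and Ctso (-0.14, limma adjusted p = 0.15). Gm2a kept its call when any single array was left out. Of the other decreases, the highest limma adjusted p on leaving out a single array was 0.055 for Smpd1 (without Rictor-deleted array 1 or 3), 0.071 for Manba (Rictor-deleted 1, and it was also lost without Rictor-deleted 2), 0.091 for Cd68 (Rictor-deleted 2, and it was also lost without Rictor-deleted 3 or control 1 or 2), 0.14 for Ppt1 (lost without any but control 1) and 0.16 for Ctso (lost without any of the 6).

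Igf2r, the cation-independent mannose 6-phosphate receptor that sorts new hydrolases to lysosomes, rose in MLL-AF9 leukemia. It read 38.0, 27.6 and 36.1 in Rictor-deleted and 9.12, 7.53 and 7.97 in control cells, a difference of 1.04 ± 0.08 (SE; limma adjusted p = 1.6e-05), and its controls were near the dimmest values kept by the filter. In MLL-NRIP3 leukemia Igf2r read 110.5, 105 and 63.2 in Rictor-deleted and 222, 115 and 144 in control cells, a difference of -0.68 ± 0.26 (SE; limma adjusted p = 0.23). The responses differed by -1.72 ± 0.30 (SE; limma adjusted p = 0.0063), a call that held when any array was left out. Of the 40 further lysosomal genes 0 were called in MLL-NRIP3 leukemia. The smallest p there were those of Laptm5 and Manba, at -0.54 ± 0.13 and -0.51 ± 0.12 (SE; limma adjusted p = 0.089 for each), and of Ctse, at 0.72 ± 0.20 (SE; limma adjusted p = 0.12).

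Of 44 further autophagy genes tested, 3 fell and 1 rose in MLL-AF9 leukemia and 2 fell in MLL-NRIP3 leukemia, against 8.26% of all genes called in MLL-AF9 and 1.53% in MLL-NRIP3 leukemia. The MLL-AF9 count is thus near the share of all genes. Pink1, the kinase that marks damaged mitochondria for autophagy, fell in both. It read 119, 101 and 112 in Rictor-deleted and 151, 142 and 139 in control MLL-AF9 cells (-0.34 ± 0.08, SE; limma adjusted p = 0.02). In MLL-NRIP3 leukemia it read 87.7, 107 and 84.3 in Rictor-deleted and 272, 236 and 203 in control cells (-1.21 ± 0.16, SE; limma adjusted p = 0.013). All 3 MLL-NRIP3 controls lay well above the Rictor-deleted arrays, and without control arrays 1 and 2 the difference was -1.01 (limma adjusted p = 0.21, with 1 control left). The Pink1 calls also ended without single arrays, at limma adjusted p up to 0.089 in MLL-AF9 (Rictor-deleted arrays 2 or 3, or control 1) and up to 0.071 in MLL-NRIP3 (control 2 or Rictor-deleted 1).

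Tax1bp1, a cargo receptor related in function to Sqstm1, read 398, 414 and 421 in Rictor-deleted and 755, 808 and 609.9 in control MLL-NRIP3 cells, and fell by 0.79 ± 0.13 (SE; limma adjusted p = 0.028). The groups lay far apart, although the call ended without any single array other than control array 3, at an adjusted p up to 0.12. With the probe sets of Tax1bp1 averaged its difference was -0.52 (limma adjusted p = 0.092). Without control arrays 1 and 2 its difference was -0.55 (limma adjusted p = 0.32, with 1 control left). In MLL-AF9 leukemia its difference was -0.06 ± 0.06 (SE; limma adjusted p = 0.66). The responses of Tax1bp1 and Pink1 differed between the leukemias by -0.73 ± 0.14 (SE; limma adjusted p = 0.0094) and -0.88 ± 0.17 (SE; limma adjusted p = 0.011). In MLL-AF9 leukemia Retreg1, a receptor for autophagy of the endoplasmic reticulum, fell by 0.40 ± 0.08 (SE; limma adjusted p = 0.011), Sh3glb1, a membrane-bending partner of Uvrag, fell by 0.35 ± 0.09 (SE; limma adjusted p = 0.033), and Atg16l2, a relative of Atg16l1, rose by 0.60 ± 0.11 (SE; limma adjusted p = 0.0057). With all 12 arrays in one fit none of these 3, nor Pink1 in MLL-AF9 leukemia, was called, and the call of Sh3glb1 also ended on omitting Rictor-deleted array 1, Rictor-deleted array 2, control 1 or control 2 (limma adjusted p up to 0.13). Averaging the probe sets of Sh3glb1 ended its call too (-0.30, limma adjusted p = 0.052).

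None of the 16 subunits and accessory proteins tested of the v-ATPase, the proton pump that acidifies lysosomes, was called in either leukemia or in the difference of responses. Their median differences were -0.07 in MLL-AF9 and -0.13 in MLL-NRIP3 leukemia. In MLL-AF9 leukemia 5 of the 16 had an unadjusted p under 0.05, as did 5 in MLL-NRIP3 leukemia, against 21.8% and 17.7% of all genes in these models. The smallest p were those of Atp6ap1 (-0.21 ± 0.06, SE; limma adjusted p = 0.071) in MLL-AF9 and of Atp6v0a1 (-0.55 ± 0.17, SE; limma adjusted p = 0.16) in MLL-NRIP3 leukemia. Of 18 genes of mTORC1 and its regulators at the lysosome, 0 were called in any comparison, with 3 at an unadjusted p under 0.05 in MLL-AF9 and 6 in MLL-NRIP3 leukemia, against the same 21.8% and 17.7%. The closest were Lamtor2, a subunit of the Ragulator scaffold, at 0.36 ± 0.11 (SE; limma adjusted p = 0.08) in MLL-AF9 leukemia, and Tsc1, of the complex that restrains mTORC1, at -0.47 ± 0.14 (SE; limma adjusted p = 0.15) in MLL-NRIP3 leukemia.

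**Figure D5:**
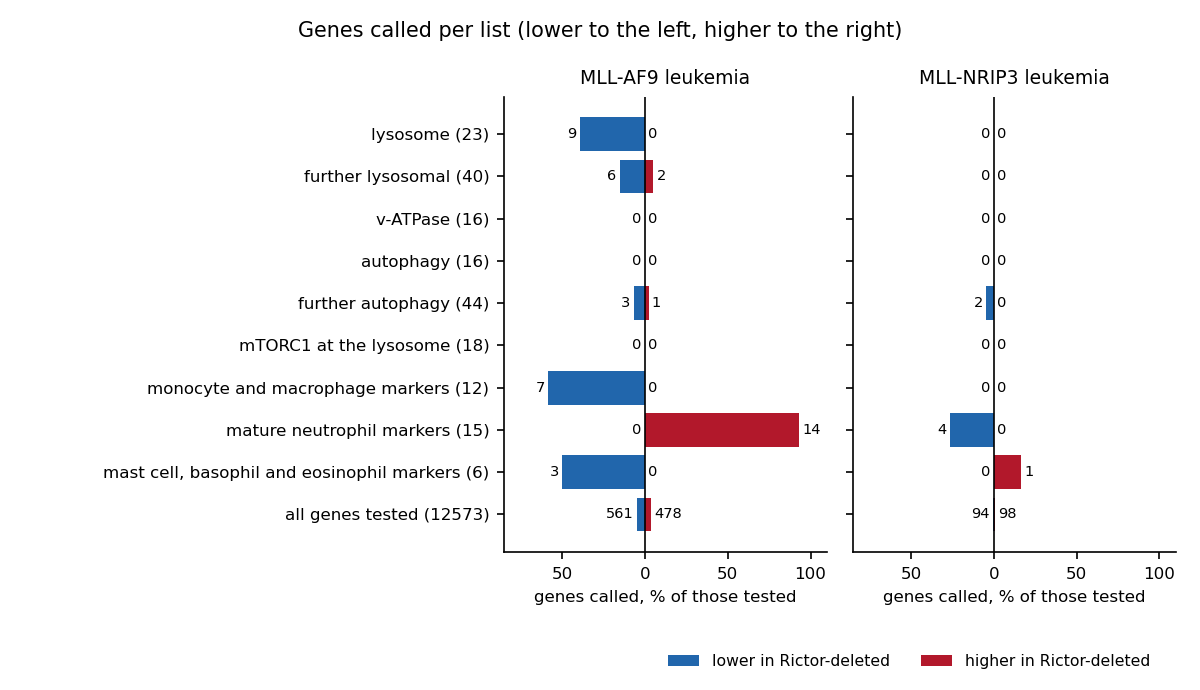
Share of each list called lower (left, blue) or higher (right, red) in Rictor-deleted than in control leukemia at an adjusted p under 0.05, with the number of genes at each bar and the number tested in brackets. In MLL-AF9 leukemia 9 of 23 lysosomal genes were lower, beside 7 of 12 monocyte and macrophage markers lower and 14 of 15 mature neutrophil markers higher; in MLL-NRIP3 leukemia no lysosomal gene was called.

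The 7 monocyte and macrophage markers that fell in MLL-AF9 leukemia were Cd68, which is also one of the further lysosomal genes, Adgre1, Mrc1, C1qa, C1qb, C1qc and Vcam1. Mrc1, the macrophage mannose receptor, was dim at 8.06, 8.71 and 8.39 in Rictor-deleted and 24.2, 18.9 and 18.3 in control cells. The complement subunit C1qc, a macrophage product, read 11.8, 14.5 and 17.2 in Rictor-deleted and 46.0, 30.04 and 39.2 in control cells. Csf1r, the receptor of the macrophage growth factor, read 1283, 1207 and 1242 in Rictor-deleted and 1478, 1249 and 1379 in control cells and was not called. The 15 mature neutrophil markers summed to 30946 to 34042 in Rictor-deleted and 9501 to 13761 in control cells, with 14 higher, and of 6 mast cell, basophil and eosinophil markers 3 fell (Prg2, Prg3 and Gata2), with sums of 557 to 744 in Rictor-deleted and 1364 to 1458 in control cells. In Rictor-deleted cells Mrc1 lay near the median of all probe sets on those arrays (8.3, 8.197 and 8.352). Such values do not show that its transcript remained. In one fit of all 12 arrays, several marker calls of MLL-AF9 leukemia ended. The neutrophil markers S100a8, S100a9, Ngp, Camp, Ltf, Mmp9 and Itgam lost theirs (limma adjusted p from 0.074 to 0.53). So did Vcam1 (0.061), Gata2 (0.32) and Cd68, while the remaining marker calls held. Most fits that left out 1 array ended the calls of Gata2 and Itgam (limma adjusted p up to 0.15 and 0.12). Quantile normalization and array weights ended that of Gata2 too (0.055 and 0.068).

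In MLL-NRIP3 leukemia the neutrophil markers summed to 2343 to 2641 in Rictor-deleted and 5587 to 22476 in control cells, with 4 of 15 lower, and the monocyte and macrophage markers to 1389 to 2146 in Rictor-deleted and 1194 to 2661 in control cells, with 0 of 12 called. Csf1r followed the order of Ctss on the controls, at 559.6, 388 and 272 in Rictor-deleted and 1076, 805 and 246 in control cells. Of the 6 mast cell, basophil and eosinophil markers 1, the mast cell protease Cpa3, rose, with sums of 769 to 2214 in Rictor-deleted and 586 to 598 in control cells. Each of the neutrophil calls and that of Cpa3 ended when some single array was left out. Kit, a receptor of progenitors and mast cells, read 137, 157 and 135 in Rictor-deleted and 232, 159.6 and 192 in control MLL-AF9 cells (limma adjusted p = 0.056), and 572, 406 and 593 in Rictor-deleted and 307, 390.2 and 326 in control MLL-NRIP3 cells (limma adjusted p = 0.14). Its responses differed by 0.98 ± 0.22 (SE; limma adjusted p = 0.027). The part of these differences in the lysosomal values of MLL-NRIP3 leukemia was not tested.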

How the data were processed

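The deposited table holds linear intensity values of 45101 probe sets on 12 arrays; how the authors summarised and normalized them was not given, beyond 7 µg of total RNA labelled per array, per the labels' protocols. Genes were named from probe sets with 1 symbol in the platform annotation (34958), updated to RefSeq symbols by Entrez number. Genes were kept if their mean intensity reached 7.7, the 40th percentile over probe sets. Values were used as log2(intensity + 16). Differences were tested with limma 3.58.1 in R 4.3.3 (lmFit, eBayes with a trend, 2-sided), on the 6 arrays of each leukemia, and on all 12 for the difference of responses. Exact permutation of 3 against 3 arrays, whose smallest p is 0.1, was not used. The procedure was run on simulated data with independent noise for each gene and array and no outlying array. MLL-NRIP3 control arrays 1 and 2 differ from that setting, so no conclusion about them is drawn from it. Groups and replicate numbers came from the sample titles; same-numbered arrays did not deviate together (correlations from -0.135 to 0.056). Genes named were those called, otherwise the 3 with the smallest p per list and comparison, and Lamp1, Ctsd, Tfeb, Sqstm1, Map1lc3b, Ulk1, Rictor, Kit and Ptprc; Xist, Eif2s3y, Csf1r, Glb1 in MLL-NRIP3 leukemia, and the cases where a single array decides a value were chosen after values were seen. The members, the lists and the tests were chosen with earlier results of these data known. Other normalizations, filters, pseudocounts, fits and omitted arrays were tried. Python 3.11.15, pandas 2.3.3 and matplotlib 3.10.9 were used.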

Additional observations from a re-analysis of the deposited data

Results flagged for a closer look

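The response to Rictor deletion differed between the leukemias, by the test of the difference itself (MLL-NRIP3 minus MLL-AF9, log2 scale, limma adjusted p under 0.05), for 4 genes of the broader lysosome and autophagy lists. They were 2 of the 40 further lysosomal and 2 of the 44 further autophagy genes tested, near the 4.29% of all genes that differed. The difference of responses was -1.72 for Igf2r, -0.59 for Laptm5, -0.88 for Pink1 and -0.73 for Tax1bp1. That of Laptm5 lost its call without 10 of the 12 arrays taken singly (adjusted p up to 0.091), while those of Igf2r, Pink1 and Tax1bp1 kept theirs. With the probe sets of Laptm5 averaged its difference of responses was -0.21 (limma adjusted p = 0.45). Without MLL-NRIP3 control arrays 1 and 2 it was -0.30.

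The same difference was found for markers of other myeloid cells. Among neutrophil markers it was -5.59 for Stfa2l1, -5.08 for Ngp, -4.64 for S100a9, -3.41 for Cd177 and -2.95 for Lcn2. Among macrophage markers it was 1.30 for Vcam1, 0.73 for C1qb and 0.48 for Mrc1. It was 2.91 for Cpa3, 1.84 for Prg3 and 0.94 for Gata2 among mast cell, basophil and eosinophil markers, and 0.98 for Kit. The calls of C1qb, Cpa3, Gata2 and Kit did not hold with every single array left out, and those of the other markers here did.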

How the results depend on the processing

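Under quantile normalization, median centring, the stricter filter, both other pseudocounts, eBayes without a trend, robust eBayes and array weights, all 9 lysosomal genes that fell in MLL-AF9 leukemia kept their call; 8 did with no filter and 7 with probe sets averaged per gene. With all 12 arrays in one fit the lysosomal counts were 0 in MLL-AF9 and 5 in MLL-NRIP3 leukemia and the autophagy count 1 in MLL-NRIP3 leukemia. With array weights the MLL-NRIP3 counts were 8 lysosomal and 2 autophagy genes, and 3 lysosomal responses differed. In that setting 23.9% of all genes were called in MLL-NRIP3 leukemia and 20.1% for the difference of responses. Leaving out single arrays gave 4 to 9 lysosomal genes in MLL-AF9 (lowest without Rictor-deleted array 2) and 0 to 7 in MLL-NRIP3 leukemia, and 0 to 4 for the difference of responses (both highest without control array 3). Of the lysosomal and autophagy genes called in the analysis as reported, none reversed its direction under any alternative tried. The cause of these changes was not tested.

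With the replicate number as a block 7 of the 9 lysosomal genes kept their call in MLL-AF9 leukemia (Glb1 and Npc1 did not, at adjusted p = 0.05 and 0.057 in limma), and the other counts stayed at 0. The numbers are shared by title only and do not pair the samples. Adding the signal of the hybridization controls to the fit, chosen after seeing the data, left the 9 called. In MLL-NRIP3 leukemia it left 30 of all genes called, against 192 without it. It ended the calls there of Pink1 (limma adjusted p = 0.13), Tax1bp1 (0.25), the neutrophil markers and Cpa3. In MLL-AF9 leukemia it ended those of Ppt1 (limma adjusted p = 0.069), Ctso (0.082), Gata2 (0.097) and the neutrophil marker Itgam (0.051). Among the responses, it ended the calls of Laptm5 (limma adjusted p = 0.07), C1qb (0.1), Cpa3 (0.065), Gata2 (0.079) and Kit (0.081). The 3 arrays per group, the wider spread of the MLL-NRIP3 arrays and the unknown normalization limit what can be detected.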
